A study of Mus musculus with 9 samples.

Results

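The comparison set the 6 kidney arrays of db/db genotype against the 3 db/m arrays, and together these are all 9 arrays of the series. Saline was the treatment behind 3 of the db/db arrays (db/db) and Tang-shen Formula, a herbal medicine, behind the other 3 (db/db+TSF), and both groups carried equal weight. All mice were male, 20 weeks old and of the C57BLKS/J strain. Gavage delivered the formula over 12 weeks at 2.4 g/kg/day, and each labelled db/db group held 9 mice. Mice of the db/m group are lean heterozygotes for the db allele of the leptin receptor gene, so no group was free of that allele. Whether they were gavaged is not given in the sources used here. Renal cortex was the tissue, and the series asked through which genes the formula acts on diabetic kidney injury. The question here was how the cortex of the db/db genotype differed from db/m in what both db/db groups share.

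Leptin signals satiety to the brain through its receptor, and mice with 2 db alleles lack the signalling form, overeat, and become obese and diabetic. The cortex consists largely of proximal tubule, which takes up filtered glucose, amino acids and phosphate, secretes organic anions and oxidises fatty acids. In the male mouse, androgens act on this segment and keep a set of transporters and steroid- and drug-metabolising enzymes high.

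The labels call the 3 arrays of a group biological replicates, and p-values measure the spread between them. Levels are log2(intensity + 1), and the genotype difference is the mean of both db/db groups minus the db/m mean on that scale. A gene passed the threshold at a limma adjusted p of 0.05 over 17740 genes, and only such genes are said to have risen or fallen. Median intensity per array was 10.3 to 11.2. Along the first principal component, with 32.3% of the variance, scores ran from -26 to -13.3 in db/m and from 1.2 to 21.2 in the db/db genotype. The next component (16.6%) had db/db replicate 3 at 18.4 and db/db+TSF replicate 2 at -19.9. Proximal tubule markers were bright on every array, with Slc34a1, the phosphate cotransporter of that segment, at 12.12, 12.16 and 12.22 in db/m, 12.19, 12.19 and 12.12 in db/db, and 12.23, 12.22 and 12.27 in db/db+TSF. Of the 17 proximal tubule markers tested, 1 rose, 1 fell, and the median genotype difference was 0.03, beside 0.00 over all genes.

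Kidneys of the db/db genotype had much lower levels of a set of organic anion transporters, steroid-metabolising enzymes and glucuronosyltransferases, and of the fatty acid translocase Cd36. The monoamine oxidases, the vitamin D hydroxylase Cyp27b1, calcium-handling genes of the distal tubule and the clock genes Per1, Per3, Cry1 and Cry2 were higher, though each of these 4 clock genes lost its call with some single array left out. For db/db alone against db/m, none of these 4 clock genes passed (adjusted p from 0.0617 to 0.234). Cyp27b1 (adjusted p = 0.0513) and the calcium channel gene Trpv5 (adjusted p = 0.125) did not pass there either. For db/db+TSF alone, all of these passed except Per3 (adjusted p = 0.0637). For the pooled genotype difference, the threshold was passed by 521 of 17740 genes (2.94%), of which 250 rose (1.41% of all tested) and 271 fell (1.53%). Falls were the larger changes, with 52 genes at least 2-fold lower and 22 at least 2-fold higher. The median size among the 521 was 0.59. In 484 of the 521 the arrays of the genotypes did not overlap, and the same held for 8.55% of all genes tested, 4.23% with all 6 db/db arrays above and 4.32% with all 6 below. The count was 102 higher and 129 lower without db/m replicate 1, and the lower count was 180 when db/m replicate 2 or db/db+TSF replicate 3 was left out. Whichever of the 9 arrays was left out, 81 of the higher and 92 of the lower genes passed.

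**Figure D1:**
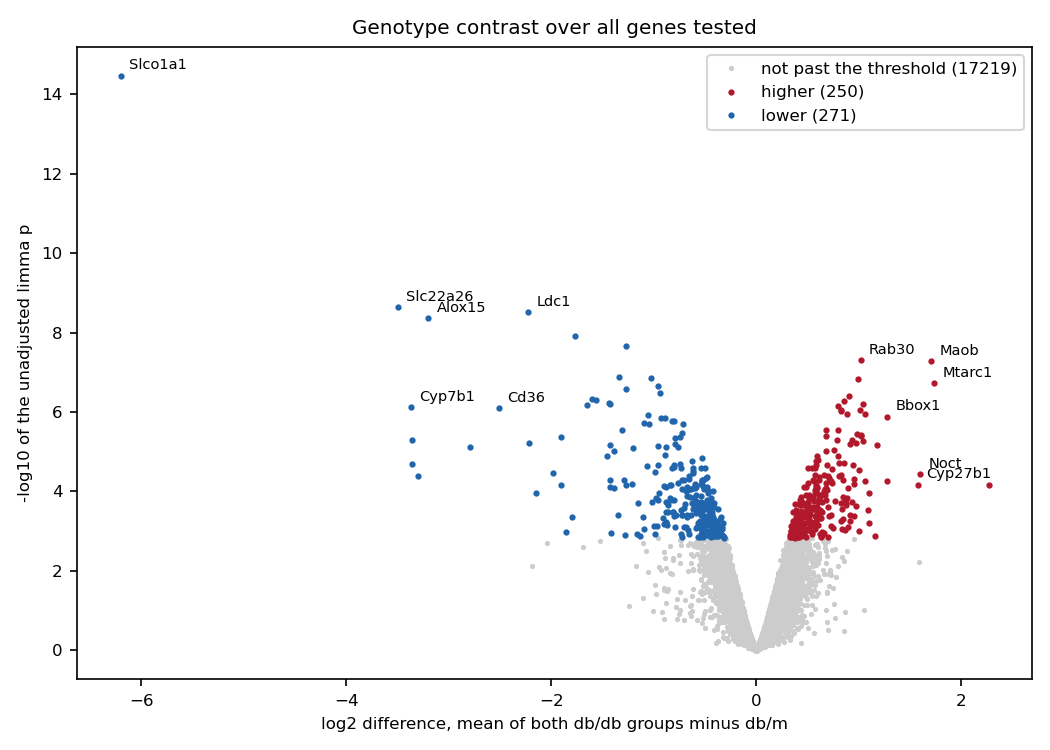
Each point is 1 of 17740 genes, with the log2 genotype difference on the horizontal axis and -log10 of the unadjusted limma p on the vertical axis. The 250 red points rose and the 271 blue points fell, and Slco1a1 at -6.20 lies far from every other gene.

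Slco1a1, an organic anion transporter of the proximal tubule brush border that androgens raise, had the largest change in either direction. Its levels in replicate order were 8.24, 8.62 and 8.22 in db/m, 2.17, 2.36 and 2.10 in db/db, and 2.06, 2.14 and 2.12 in db/db+TSF. All 6 db/db arrays lay near the bottom of the intensity scale and none came near db/m. The genotype difference was -6.20 (SE 0.10, adjusted p = 6.0e-11), and the fitted 73.7-fold decrease depends on that floor.

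Other organic anion transporters fell with it. Slc22a26, of the organic anion transporter family, measured 8.38, 7.40 and 7.61 in db/m, 4.66, 4.39 and 4.08 in db/db, and 4.07, 4.12 and 4.48 in db/db+TSF, a difference of -3.50 (SE 0.20, adjusted p = 1.8e-05). Slc22a7, the transporter OAT2, which female kidneys express more, measured 8.15, 7.44 and 7.01 in db/m, 3.85, 3.30 and 5.70 in db/db, and 4.81, 3.11 and 4.60 in db/db+TSF. It differed by -3.30 (SE 0.50, adjusted p = 0.00659), with db/db replicate 3 nearest to db/m and db/db+TSF replicate 2 farthest, and the genotypes did not overlap. Slc22a28 was at 8.10 to 8.32 in db/m and 6.31 to 7.26 in the db/db genotype and fell by 1.44. Slc22a12, the urate transporter URAT1, differed by -0.62 and Slc22a22, a prostaglandin transporter, by -0.48. Slc22a12 did not pass without db/m replicate 2 or 3 (adjusted p from 0.0531 to 0.0653), nor did Slc22a22 without db/m replicate 1 or 2, db/db replicate 2 or 3, or db/db+TSF replicate 1 or 2 (adjusted p from 0.0672 to 0.132). The genotypes overlapped in Slc22a22, with differences against db/m of -0.30 for db/db (adjusted p = 0.325) and -0.67 for db/db+TSF (adjusted p = 0.0178). Of the 17 tested genes on the organic anion transporter list, 6 fell and none rose, with a median of -0.48. The count covers the listed symbols only. Slc22a6 and Slc22a8, the main transporters OAT1 and OAT3 of the basolateral membrane, had differences of -0.31 (adjusted p = 0.0769) and 0.15 (adjusted p = 0.368). Slc22a19, another family member, had a difference of -2.19 that did not pass (adjusted p = 0.123). Whether a probe set reads 1 member of such closely related families was not tested.

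Steroid-metabolising enzymes formed the next group. Cyp7b1, which hydroxylates oxysterols and steroids, measured 10.01, 9.53 and 9.87 in db/m, 6.70, 7.36 and 6.82 in db/db, and 6.40, 4.74 and 6.58 in db/db+TSF. The 6 db/db arrays lay at least 2 log2 units lower than every db/m array, and db/db+TSF replicate 2 was the lowest. The difference was -3.37 (SE 0.34, adjusted p = 5.2e-04), a 10.3-fold decrease. Akr1c14, a hydroxysteroid dehydrogenase, was at 7.99 to 8.50 in db/m and 3.96 to 6.22 in the db/db genotype and differed by -2.79, with db/db+TSF replicate 2 the lowest array. Akr1c18, which inactivates progesterone, measured 7.40, 5.60 and 5.57 in db/m, 4.21, 4.16 and 4.45 in db/db, and 4.44, 3.32 and 3.67 in db/db+TSF, with db/m replicate 1 above the other db/m arrays, and its difference was -2.15 (SE 0.37, adjusted p = 0.0108). Hsd17b2, which oxidises estradiol and testosterone to weaker forms, was at 7.59 to 7.96 in db/m and 4.40 to 6.26 in the db/db genotype and differed by -1.99, or -1.72 without db/db+TSF replicate 2, which was the lowest array. Hsd17b11 fell by 0.72 and Hsd11b1, which regenerates active glucocorticoid, by 0.44. Hsd11b1 did not pass without db/m replicate 1 or 3, or db/db+TSF replicate 3 (adjusted p from 0.0501 to 0.095). Hsd3b3 and Cyp17a1, enzymes of steroid synthesis, rose by 0.95 and 0.83, the latter at a dim 3.04 to 3.31 in db/m and 3.54 to 4.46 in the db/db genotype and not past the threshold without db/m replicate 1 (adjusted p = 0.0784). Of 16 steroid-metabolising enzymes tested, 6 fell and 2 rose.

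Of the 18 genes listed as raised by androgens in the kidney, 11 fell, none rose, and all 18 lay lower than in db/m, with a median of -0.91. In bulk tissue, fewer cells of a type and less RNA per cell cannot be told apart, here and for the marker lists. Ugt2b37, a glucuronosyltransferase, measured 10.19, 10.38 and 10.20 in db/m, 8.15, 7.98 and 5.77 in db/db, and 5.83, 6.27 and 7.40 in db/db+TSF, which spread the db/db arrays over more than 2 log2 units while every one stayed lower than db/m. Its difference was -3.36 (SE 0.47, adjusted p = 0.00434). The kidney androgen-regulated protein gene Kap, a classical androgen target, was at 11.70 to 11.87 in db/m and 9.34 to 10.99 in the db/db genotype, with a difference of -1.16 (SE 0.27, adjusted p = 0.0442). The lowest array was db/db+TSF replicate 2, and without it the difference was -0.92. Kap did not pass without db/m replicate 1, 2 or 3, or db/db replicate 1, 2 or 3 (adjusted p from 0.0716 to 0.142). Cndp2, a cytosolic dipeptidase, fell by 0.95, Timd2, a receptor of ferritin uptake, by 0.82 and Cyp2j13, an arachidonic acid epoxygenase family member, by 1.46. The remaining members past the threshold were Slco1a1, Slc22a28 and Cyp7b1, with Cyp4a12a (-0.86), Ugt2b38 (-1.35) and Cyp2e1 (-0.41). Of these last 3, Cyp4a12a did not pass without db/m replicate 1 or 3 (adjusted p from 0.0794 to 0.102), Ugt2b38 without db/m replicate 1, 2 or 3 (adjusted p from 0.0719 to 0.0931), and Cyp2e1 without db/m replicate 1, 2 or 3, db/db replicate 1 or 3, or db/db+TSF replicate 1 or 2 (adjusted p from 0.0507 to 0.0923). The genotypes overlapped in Cyp4a12a, with differences against db/m of -0.65 for db/db (adjusted p = 0.151) and -1.06 for db/db+TSF (adjusted p = 0.0156). Cyp4a12b, of the same family but not on this list, went the other way with a genotype difference of 0.50 that did not pass (adjusted p = 0.303). Odc1, ornithine decarboxylase, had a difference of -0.44 (adjusted p = 0.058), and the amino acid transporter Slc7a13 one of -2.04 (adjusted p = 0.0588). The count of 11 was 7 without db/m replicate 1 or without db/m replicate 3.

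Genes that female kidneys express more went both ways. Of 6 tested, Cyp4a14 rose by 0.94, Slc22a7 fell, and 4 did not pass. Cyp4a14, a fatty acid hydroxylase, measured 10.02, 10.29 and 10.48 in db/m, 11.07, 11.003 and 11.38 in db/db, and 11.29, 11.27 and 11.21 in db/db+TSF, with no overlap between the genotypes. Slc7a12, a neutral amino acid transporter, measured 9.30, 8.95 and 9.50 in db/m, 10.12, 9.78 and 10.03 in db/db, and 10.24, 7.09 and 10.22 in db/db+TSF, so that db/db+TSF replicate 2 lay lower than db/m and the other db/db arrays higher, and its difference was 0.33 (adjusted p = 0.816). Abcc3, an organic anion efflux pump, had a difference of 1.59 (adjusted p = 0.105), with db/db+TSF replicate 2 at 4.36 inside the db/m range of 3.91 to 4.86. Without that array, 3 of the 6 passed as higher.

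**Figure D2:**
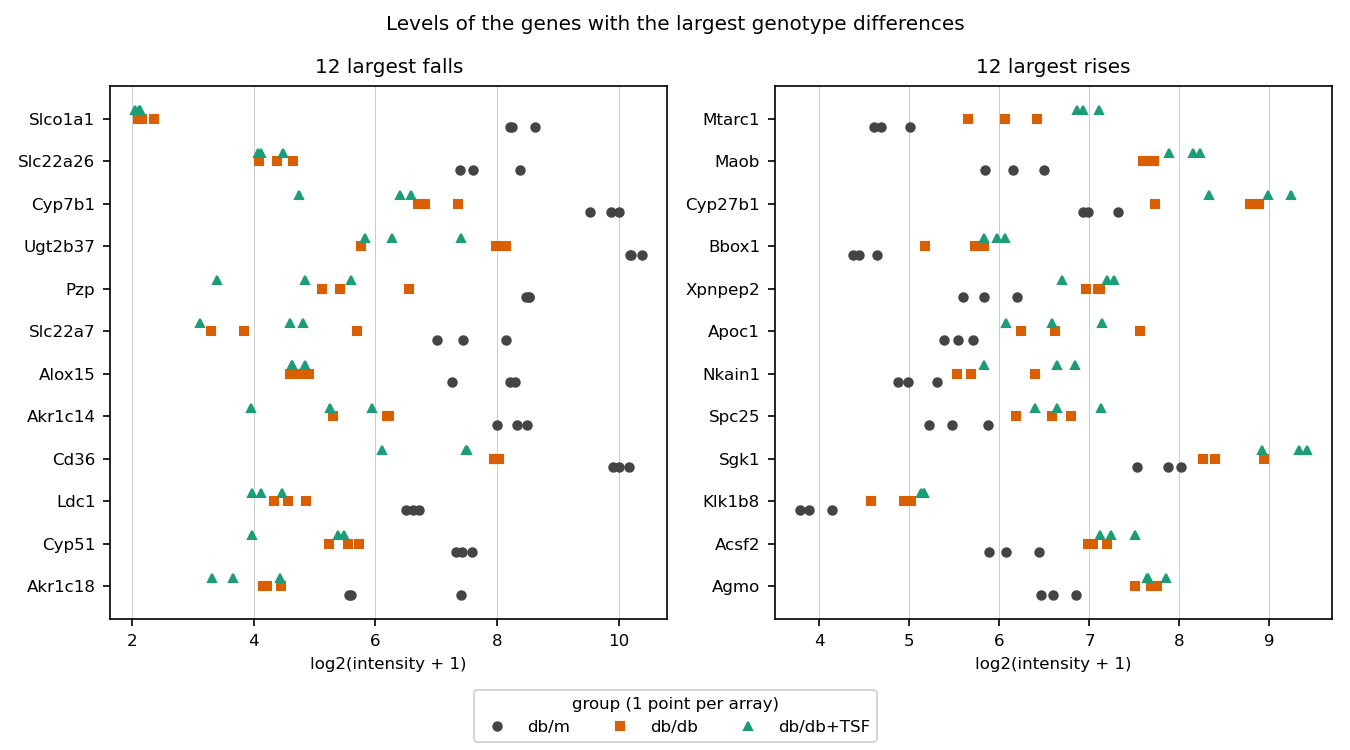
Levels as log2(intensity + 1) of the 12 largest falls (left) and the 12 largest rises (right) whose genotypes did not overlap, 1 point per array. Slco1a1 sits near 2 in all 6 db/db arrays against 8.22 to 8.62 in db/m, and db/db+TSF replicate 2 is the lowest array of Cyp7b1, Cd36 and Cyp51.

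Lipid genes changed singly. Cd36, which brings long-chain fatty acids into cells, measured 10.16, 10 and 9.91 in db/m, 7.98, 8.03 and 7.96 in db/db, and 7.52, 6.11 and 7.49 in db/db+TSF, and the difference of -2.51 (SE 0.25, adjusted p = 5.3e-04) was a 5.70-fold decrease. Every db/db array lay lower than every db/m array, and db/db+TSF replicate 2 was lower than the rest. Alox15, a lipoxygenase that oxygenates polyunsaturated fatty acids, measured 7.26, 8.22 and 8.30 in db/m, 4.59, 4.91 and 4.74 in db/db, and 4.64, 4.63 and 4.85 in db/db+TSF, a tight group of db/db arrays far lower than db/m. Its difference was -3.20 (SE 0.20, adjusted p = 1.9e-05). Cyp51, the lanosterol demethylase, was at 7.33 to 7.59 in db/m and 3.98 to 5.73 in the db/db genotype and differed by -2.21, or -1.97 without db/db+TSF replicate 2, the lowest array. It was the only 1 of 19 cholesterol synthesis genes tested to pass, beside a list median of -0.19. Sqle, squalene epoxidase, had a difference of -0.58 (adjusted p = 0.0672). Apob and Apoe, apolipoproteins of lipid export and clearance, rose by 0.58 and 0.68, and Apoe did not pass without db/m replicate 1 (adjusted p = 0.0554). Apoc1, another apolipoprotein, rose by 1.16 and did not pass without db/m replicate 1, 2 or 3, db/db replicate 1, or db/db+TSF replicate 1 or 3 (adjusted p from 0.0743 to 0.165), nor after median scaling (adjusted p = 0.0504) or quantile normalization (adjusted p = 0.0507).

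Fatty acid synthesis genes went both ways. Me1, malic enzyme, fell by 0.79, Fads1, a desaturase, by 0.48, and Elovl6, an elongase, rose by 0.67. The other 15 of 18 tested did not pass. Of 20 fatty acid oxidation genes, Acaa2, mitochondrial thiolase, rose by 0.33, though not without db/m replicate 1 or 2, db/db replicate 1, 2 or 3, or db/db+TSF replicate 1, 2 or 3 (adjusted p from 0.0575 to 0.182) nor after median scaling (adjusted p = 0.0803). The list median was 0.01, and Cpt1a, the carnitine gate to oxidation, had a difference of -0.02 (adjusted p = 0.943). Agmo, which cleaves ether lipids, and Ltc4s, leukotriene C4 synthase, rose by 1.05 and 0.84. Acsf2, an acyl-CoA synthetase family member, was at 5.88 to 6.44 in db/m and 6.98 to 7.50 in the db/db genotype and rose by 1.05.

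Enzymes of amine and drug metabolism were among the rises. Mtarc1, a molybdenum enzyme that reduces N-hydroxylated compounds, measured 4.61, 4.68 and 5.01 in db/m, 6.06, 6.42 and 5.65 in db/db, and 6.93, 7.10 and 6.86 in db/db+TSF. The db/db arrays lay higher than db/m, and the db/db+TSF arrays higher still. The genotype difference was 1.74 (SE 0.15, adjusted p = 2.8e-04). Maob, monoamine oxidase B, measured 6.15, 5.84 and 6.50 in db/m, 7.60, 7.62 and 7.72 in db/db, and 8.15, 8.22 and 7.88 in db/db+TSF, with a difference of 1.70 (SE 0.13, adjusted p = 1.2e-04), a 3.26-fold increase and no overlap. Its partner Maoa rose by 0.73. Cyp2d26, Ephx1 (microsomal epoxide hydrolase) and Ces1d (a carboxylesterase) rose by 0.79, 0.80 and 0.60. Fmo5, a flavin monooxygenase, fell by 1.43 and Adh1, alcohol dehydrogenase, by 0.54. Ces1f, another carboxylesterase, differed by -0.88 and did not pass without db/m replicate 1, 2 or 3, or db/db+TSF replicate 1 or 2 (adjusted p from 0.0507 to 0.109). In all, 6 of 27 phase I enzymes rose, 5 fell and the median was -0.03. The lower count was 3 without db/m replicate 1, 2 or 3, or db/db+TSF replicate 1 or 2.

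Conjugation enzymes divided likewise, with 3 of 20 higher and 4 lower. The lower count was 1 without db/m replicate 1 or 2, and 2 without db/m replicate 3, db/db replicate 1 or 2, or db/db+TSF replicate 1 or 2, and the higher count was 5 without db/db replicate 2. The glutathione transferases Gsta4 and Gsta3 rose by 0.74 and 0.58 and the glucuronosyltransferase Ugt2b34 by 0.95, while Ugt2b37 and Ugt2b38 were in the group that fell. Ugt3a1 and Acsm2 differed by -0.46 and -0.43. Ugt3a1 did not pass without db/m replicate 1, 2 or 3, db/db replicate 1 or 2, or db/db+TSF replicate 1 or 2 (adjusted p from 0.0579 to 0.108), and Acsm2 did not without db/m replicate 1 or 2, db/db replicate 1, 2 or 3, or db/db+TSF replicate 1, 2 or 3 (adjusted p from 0.0536 to 0.143). None of 14 NRF2 targets and antioxidant enzymes tested passed, and Hmox1, heme oxygenase, had a difference of -0.62 (adjusted p = 0.134).

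Of 12 ABC efflux pumps tested, 4 rose and none fell. Abcc4, which exports organic anions and cyclic nucleotides, measured 7.35, 7.60 and 7.78 in db/m, 8.49, 8.68 and 8.30 in db/db, and 8.61, 8.89 and 8.59 in db/db+TSF, a difference of 1.02 (SE 0.12, adjusted p = 0.00146) with no overlap. Abcb1a and Abcb1b, the P-glycoprotein genes, rose by 0.69 and 0.93, and Abca1, the cholesterol exporter, by 0.86. Abcb1b did not pass without db/m replicate 1 or 3 (adjusted p from 0.0532 to 0.0753), and its genotypes overlapped, with differences against db/m of 1.25 for db/db (adjusted p = 0.0144) and 0.62 for db/db+TSF (adjusted p = 0.129). Slc22a2, the organic cation transporter OCT2, fell by 0.50, and Bbox1, which completes the making of carnitine, measured 4.38, 4.64 and 4.44 in db/m, 5.18, 5.83 and 5.72 in db/db, and 5.82, 6.07 and 5.97 in db/db+TSF and rose by 1.28 (SE 0.14, adjusted p = 7.1e-04).

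Vitamin D and calcium genes differed. Cyp27b1, which makes active vitamin D, measured 7.31, 6.98 and 6.93 in db/m, 8.78, 7.73 and 8.88 in db/db, and 9.23, 8.98 and 8.33 in db/db+TSF. All db/db arrays lay higher than db/m, with db/db replicate 2 the nearest, and the difference of 1.58 (SE 0.26, adjusted p = 0.00831) was a 2.99-fold increase. Cyp24a1, which breaks active vitamin D down, had a difference of -0.23 (adjusted p = 0.789), from 8.82 to 10.22 in db/m and 8.69 to 10.20 in the db/db genotype. Distal calcium genes rose. Calb1, the calcium carrier calbindin, measured 10.04, 10.29 and 9.85 in db/m, 10.86, 10.45 and 10.90 in db/db, and 11.05, 11.14 and 11.10 in db/db+TSF, with a difference of 0.86 (SE 0.12, adjusted p = 0.00434). Slc8a1, the sodium-calcium exchanger of the basolateral membrane, rose by 1.001, or 0.89 without db/db+TSF replicate 2, the highest array, and Trpv5, the apical calcium channel, by 0.70. Trpv5 did not pass without db/m replicate 1 or 3 (adjusted p from 0.0641 to 0.0806). Pvalb and Kcnj10, of the distal convoluted tubule, rose by 0.44 and 0.42. Pvalb did not pass without db/m replicate 1 or 2, db/db replicate 1 or 2, or db/db+TSF replicate 1 or 3 (adjusted p from 0.0526 to 0.104), and Kcnj10 did not without db/m replicate 1 or 2, db/db replicate 1, 2 or 3, or db/db+TSF replicate 1, 2 or 3 (adjusted p from 0.0568 to 0.165) nor after median scaling (adjusted p = 0.0591). Of 16 loop and distal tubule markers, 5 rose and none fell, and the count was 2 without db/m replicate 1 and 3 without db/m replicate 2, db/db replicate 1 or 2, or db/db+TSF replicate 1 or 3. The defining markers of the thick limb and distal convoluted tubule, Umod and Slc12a3, had differences of 0.09 (adjusted p = 0.736) and 0.31 (adjusted p = 0.12). The summed intensity of the list was 11613.5 to 12383 in db/m and 13917.3 to 15202.2 in the db/db genotype. Collecting duct markers shifted by a like amount, with a median of 0.27 beside 0.25 for the loop and distal tubule list. Of 16 tested, 1 rose and none fell, and that count was 0 without db/m replicate 1 or 2. Their mean log2 level was 7.426 to 7.585 in db/m and 7.594 to 7.795 in the db/db genotype.

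Sodium and glucocorticoid genes were partly higher. Sgk1, the kinase that keeps the epithelial sodium channel at the membrane and is raised by corticosteroids, measured 8.02, 7.88 and 7.53 in db/m, 8.39, 8.26 and 8.94 in db/db, and 9.41, 8.92 and 9.33 in db/db+TSF. The lowest db/db array, replicate 2, still lay higher than the highest db/m array, and the difference was 1.07 (SE 0.17, adjusted p = 0.0075). Scnn1a, the alpha subunit of that channel, rose by 0.61 and did not pass without db/m replicate 1 or 2 (adjusted p from 0.0867 to 0.103). Mt1, a metallothionein that glucocorticoids raise, rose by 0.47. Of 22 glucocorticoid targets tested, Sgk1, Mt1 and Per1 rose and none fell, with a median of 0.29. Fkbp5, the receptor's co-chaperone, and Tsc22d3, known as GILZ, had differences of 0.51 (adjusted p = 0.217) and 0.41 (adjusted p = 0.093). Zbtb16, a zinc finger factor that glucocorticoids induce, had a difference of -0.03 (adjusted p = 0.965), with group differences of -0.75 for db/db and 0.69 for db/db+TSF against db/m.

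Clock genes changed in both directions. Of 21 tested, 7 rose and 2 fell, with a median of 0.39. Noct, or nocturnin, a phosphatase with a daily rhythm, measured 5.75, 6.33 and 5.61 in db/m, 7.02, 6.24 and 7.25 in db/db, and 8.54, 7.71 and 8.22 in db/db+TSF. Only db/db replicate 2 reached into the db/m range, and the difference was 1.60 (SE 0.24, adjusted p = 0.00641). Against db/m, Noct differed by 0.94 for db/db (adjusted p = 0.151) and by 2.26 for db/db+TSF (adjusted p = 0.00226). Wee1, a clock-controlled kinase of the cell cycle, rose by 1.02 with no overlap. The repressors Per1, Per3, Cry1 and Cry2 rose by 0.73, 0.91, 0.85 and 0.60, and the output factor Hlf by 0.39.

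Npas2, an activator that pairs with BMAL1, measured 5.73, 5.995 and 7.86 in db/m, 4.74, 5.04 and 4.94 in db/db, and 4.77, 4.55 and 4.32 in db/db+TSF and differed by -1.80 (SE 0.37, adjusted p = 0.0241). Nr1d1, the REV-ERB-alpha repressor, differed by -0.88, from 8.71 to 9.31 in db/m and 7.66 to 8.85 in the db/db genotype, so that the genotypes overlapped. Its group differences against db/m were -0.51 for db/db (adjusted p = 0.324) and -1.26 for db/db+TSF (adjusted p = 0.0118). Cry1 overlapped too, with 0.56 for db/db (adjusted p = 0.234) and 1.13 for db/db+TSF (adjusted p = 0.0142). Arntl, which encodes BMAL1, measured 5.44, 5.62 and 6.90 in db/m, 4.75, 4.76 and 5.51 in db/db, and 5.96, 5.20 and 5.29 in db/db+TSF, with overlap and a difference of -0.74 (adjusted p = 0.256). In both Npas2 and Arntl the highest array was db/m replicate 3, and Ciart and Dbp, clock outputs, were lowest there at 5.75 and 7.14. The mice lived in a light-dark cycle, the hour of collection is not given by the labels, and its part was not tested. Wee1 and Noct passed whichever array was left out, though Noct did not with treatment ignored in the fit (adjusted p = 0.0631). Among the others, Cry1 did not pass without db/m replicate 1 or 2, or db/db+TSF replicate 1 (adjusted p from 0.0561 to 0.121), Cry2 without db/m replicate 2 or 3 (adjusted p from 0.0768 to 0.0783), Per1 without db/m replicate 1 or 3, db/db replicate 2 or 3, or db/db+TSF replicate 1 or 3 (adjusted p from 0.0531 to 0.0671), and Per3 without db/db replicate 1 or 2, or db/db+TSF replicate 2 or 3 (adjusted p from 0.0519 to 0.0617). Hlf did not pass without db/m replicate 1, 2 or 3, db/db replicate 1 or 2, or db/db+TSF replicate 1 or 3 (adjusted p from 0.0525 to 0.0873), Npas2 without db/db replicate 1, or db/db+TSF replicate 3 (adjusted p from 0.055 to 0.056), and Nr1d1 without db/m replicate 2 or 3, or db/db+TSF replicate 1 or 3 (adjusted p from 0.0562 to 0.125). The count of higher clock genes was 4 without db/m replicate 1, 2 or 3, db/db replicate 2, or db/db+TSF replicate 1 or 3. The lower count was 1 without db/m replicate 2 or 3, db/db replicate 1 or db/db+TSF replicate 1, and 0 without db/db+TSF replicate 3.

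Promoters of 4 of these risers, picked by hand, are shown because clock and steroid receptor elements are known in such genes. Only windows with a match are printed. Each sequence runs 5′ to 3′ over the 250 bases before the start site, from RefSeq on GRCm38.p6: Sgk1 at chr10:21993640-21993889, plus strand, Per1 at chr11:69098699-69098948, plus strand, Cry1 at chr10:85185055-85185304, minus strand and Noct at chr3:51224197-51224446, plus strand. Capitals mark every match of 3 elements. They are the steroid receptor palindrome in Sgk1 (half-sites AGAACA and TGTTCT, 3 bases apart), the E-box CACGTG in Sgk1, Per1 and Cry1, and the D-box TTATGNAA in Per1 and, read on the other strand, in Noct.
Sgk1: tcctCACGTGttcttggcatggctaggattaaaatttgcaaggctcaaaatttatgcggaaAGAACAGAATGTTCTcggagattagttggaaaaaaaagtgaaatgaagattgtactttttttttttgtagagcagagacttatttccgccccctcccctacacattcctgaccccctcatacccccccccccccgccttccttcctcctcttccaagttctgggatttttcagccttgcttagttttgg
Per1: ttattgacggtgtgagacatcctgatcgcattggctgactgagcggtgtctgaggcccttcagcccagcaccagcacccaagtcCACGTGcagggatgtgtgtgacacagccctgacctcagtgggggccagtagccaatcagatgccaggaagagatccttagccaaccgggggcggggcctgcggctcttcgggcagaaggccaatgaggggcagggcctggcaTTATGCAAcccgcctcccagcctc
Cry1: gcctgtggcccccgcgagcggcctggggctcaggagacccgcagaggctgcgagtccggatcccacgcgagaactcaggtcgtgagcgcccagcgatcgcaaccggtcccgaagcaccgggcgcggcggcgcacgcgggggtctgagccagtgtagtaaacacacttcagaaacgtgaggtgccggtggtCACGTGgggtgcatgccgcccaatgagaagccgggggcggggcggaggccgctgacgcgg
Noct: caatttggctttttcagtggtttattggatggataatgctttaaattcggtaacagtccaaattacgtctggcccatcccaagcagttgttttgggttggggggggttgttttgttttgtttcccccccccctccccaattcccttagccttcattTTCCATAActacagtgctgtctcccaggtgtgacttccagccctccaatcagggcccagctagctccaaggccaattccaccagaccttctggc

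In Sgk1 the palindrome begins 189 bases before the start and the E-box 246. The E-box begins 166 before it in Per1 and 60 in Cry1, and the D-box 24 in Per1 and 94 in Noct. Among the other clock genes that rose, Per3 had the D-box and Cry2 had none of these elements. No match of any motif was recorded for Wee1 or Hlf, and a window was at hand for 96 of 123 named genes. Each motif was searched on both strands in windows of 300 bases, 250 before and 50 after the start, and 400 of the 521 genes past the threshold had a window. CACGTG stood in 9.32% of 236 windows of genes that rose, 5.90% of 271 windows of genes that fell, 8.93% of windows of all genes tested and 7.15% of all windows in the table. TTATGNAA stood in 3.39%, 4.06%, 2.36% and 3.38% of the same sets. The palindrome stood in 3 of 32851 windows in all, of which 1 was among the 236 of genes that rose, that of Sgk1. Other motifs were searched too. TGACNNNGC, the NRF2 element, stood in 16.9% of higher and 11.4% of lower windows, against 13.8% of those of genes tested and 12.4% of all. It also matched in the Per1 and Cry1 windows and is not capitalised there. TCACNCCAC, the sterol element, stood in 0.424% of higher windows, 1.85% of lower ones, 1.22% of those of genes tested and 1.24% of all. The HNF1 element, with half-sites GTTAAT and ATTAAC 1 base apart, stood in none of either set and in 3 of 32851 in all. A match describes the letters and is no evidence of binding.

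**Figure D3:**
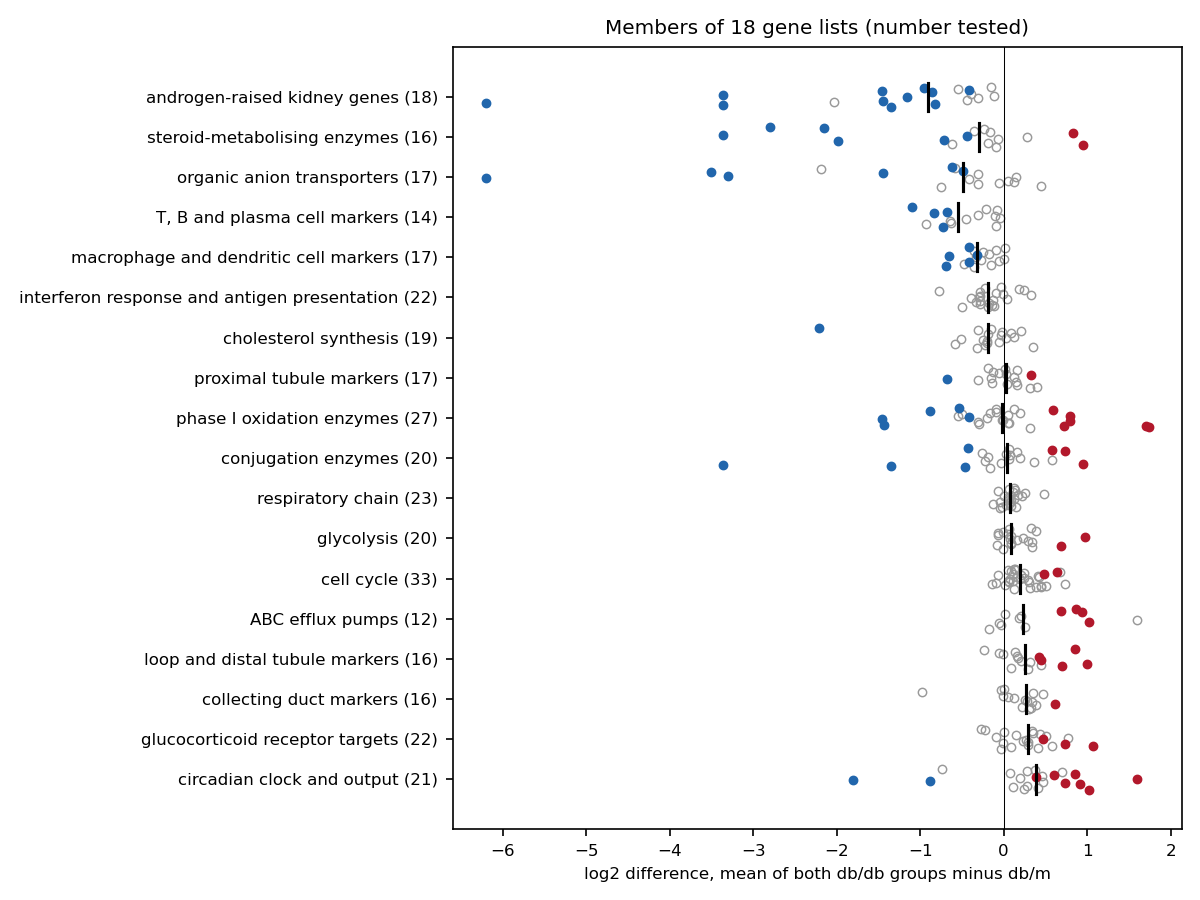
Points are the tested members of 18 gene lists, placed by log2 genotype difference. Red points rose, blue points fell, open points did not pass, and black bars are medians. Medians run from -0.91 for androgen-raised genes to 0.39 for the clock.

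Few glucose and energy genes passed the threshold. Slc2a4, the insulin-responsive transporter GLUT4, rose by 0.50 and Slc2a9, a urate and sugar transporter, by 0.42. Slc2a4 did not pass without db/m replicate 1 or 2 (adjusted p from 0.0676 to 0.0784), nor Slc2a9 without db/m replicate 1 or 3, db/db replicate 2, or db/db+TSF replicate 1 or 2 (adjusted p from 0.0569 to 0.13). Slc5a2, the glucose cotransporter SGLT2, measured 10.59 to 10.75 in db/m and 10.83 to 11.15 in the db/db genotype and had a difference of 0.31 (adjusted p = 0.0698). Pklr, pyruvate kinase of liver type, rose by 0.69 and did not pass without db/m replicate 1 (adjusted p = 0.0516). Pdk1, a pyruvate dehydrogenase kinase, rose by 0.97, and its second, dimmer probe set differed by 0.16. Both are glycolysis list members, and 18 others of 20 did not pass. None of 9 gluconeogenesis and polyol genes, 23 respiratory chain genes or 24 leptin, insulin and FOXO signalling genes passed, with medians of 0.16, 0.08 and 0.01. Lepr itself had a difference of -0.18 (adjusted p = 0.667), from 3.71 to 4.07 in db/m and 3.09 to 4.35 in the db/db genotype.

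Of 16 genes of proline and glycine breakdown tested, 3 rose. They were Gldc, the glycine decarboxylase (0.98), Prodh2, a hydroxyproline dehydrogenase (0.81), and Oat, ornithine aminotransferase (0.50). Xpnpep2, a membrane aminopeptidase that cleaves next to proline, was at 5.60 to 6.19 in db/m and 6.69 to 7.27 in the db/db genotype and rose by 1.18. Ldc1, related to decarboxylases of basic amino acids, measured 6.72, 6.62 and 6.50 in db/m, 4.86, 4.34 and 4.57 in db/db, and 4.46, 3.98 and 4.12 in db/db+TSF, and its difference of -2.23 (SE 0.13, adjusted p = 1.8e-05) left a wide gap between the genotypes. None of 17 tubular amino acid transporters passed, beside a median of -0.05.

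Few blood pressure, clotting and injury genes passed the threshold. Ace, angiotensin-converting enzyme, was at 9.53 to 10.05 in db/m and 7.66 to 9.24 in the db/db genotype, and it differed by -1.13 (SE 0.27, adjusted p = 0.0471). The lowest array was db/db+TSF replicate 2, without which the difference was -0.91. It did not pass without db/m replicate 1, 2 or 3, db/db replicate 1, 2 or 3, or db/db+TSF replicate 3 (adjusted p from 0.0692 to 0.162) nor after median scaling (adjusted p = 0.0518), and the other 7 of 8 renin-angiotensin genes tested did not pass with all arrays. Pzp, a protease inhibitor of the alpha-2-macroglobulin family, measured 8.53, 8.53 and 8.47 in db/m, 6.56, 5.13 and 5.43 in db/db, and 4.84, 3.40 and 5.60 in db/db+TSF, every db/db array lower than db/m and db/db+TSF replicate 2 the lowest, and differed by -3.36 (SE 0.41, adjusted p = 0.00171). Of 27 complement and coagulation genes tested, 2 rose and 2 fell, Pzp among the latter, with a median of -0.04, and the higher count was 1 whichever array other than db/m replicate 3 was left out. Proc, protein C of the anticoagulant pathway, fell by 0.72, and Cd59a, which blocks the complement attack complex, rose by 0.60. Tfpi, tissue factor pathway inhibitor, rose by 0.38 and did not pass when any 1 of the 9 arrays was left out (adjusted p from 0.0524 to 0.14) or after median scaling (adjusted p = 0.0584).

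Of 17 tubular injury genes, Sprr1a, a cornified envelope protein, rose by 1.09, from 3.95, 4.58 and 3.86 in db/m, 5.77, 5.64 and 5.91 in db/db, and 5.26, 4.39 and 4.36 in db/db+TSF. Replicates 2 and 3 of db/db+TSF lay inside the db/m range, and the gene did not pass without db/m replicate 1 or 3 (adjusted p from 0.0909 to 0.0921). Havcr1, which encodes KIM-1, had a difference of -0.08 (adjusted p = 0.816). Lcn2, which encodes NGAL, had 0.77 (adjusted p = 0.491), with 7.88 in db/db replicate 3 and 4.95 to 6.25 in the other 5 db/db arrays. Of 26 matrix and TGF-beta genes, Lama5, a laminin chain, rose by 0.40 and did not pass without db/m replicate 1 or 3, db/db replicate 1, 2 or 3, or db/db+TSF replicate 1, 2 or 3 (adjusted p from 0.0522 to 0.151). Nphs1, nephrin of the podocyte slit membrane, had a difference of 0.31 (adjusted p = 0.0764), with the genotypes not overlapping, and none of 11 podocyte markers passed.

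Lymphocyte markers were lower by unequal amounts. Ccl5, a chemokine of T and NK cells, measured 6.32, 6.44 and 6.63 in db/m, 5.26, 5.61 and 5.05 in db/db, and 5.52, 5.39 and 5.37 in db/db+TSF, a difference of -1.10 (SE 0.12, adjusted p = 8.9e-04) with no overlap. Cd3e and Cd3g, of the T cell receptor complex, fell by 0.68 and 0.83, and Nkg7, of cytotoxic granules, by 0.72. Cd3e did not pass without db/m replicate 1 (adjusted p = 0.0512), Cd3g without db/m replicate 1 or 2 (adjusted p from 0.0623 to 0.0735), and Nkg7 without db/m replicate 1 or 2, or db/db replicate 1 (adjusted p from 0.0518 to 0.103). Cd3g was lowest in db/db+TSF replicate 2, without which its difference was -0.75. All 14 T, B and plasma cell markers tested lay lower than in db/m, 4 past the threshold, with a median of -0.54. Some hardly differed. Cd3d and the B cell markers Cd79a and Ms4a1 had differences of -0.08, -0.05 and -0.09 (adjusted p from 0.682 to 0.877). Levels of those genes were dim, from 2.58 to 3.69 over all arrays. The summed intensity was 328.7 to 377.8 in db/m and 196.3 to 240.2 in the db/db genotype. The count of 4 was 1 without db/m replicate 1 and 2 without db/m replicate 2.

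Of 17 macrophage and dendritic cell markers, 5 fell, with a median of -0.32. These were Ms4a7 (-0.69), the receptor of CSF1 Csf1r (-0.66), Adgre1, a macrophage surface receptor (-0.42), Laptm5 (-0.41) and Cd68 (-0.32). The count was 0 without db/m replicate 1 or db/db+TSF replicate 3, 2 without db/db+TSF replicate 2, and 1 when any 1 of the other 6 arrays was left out. Without db/m replicate 2 none of the 5 passed (adjusted p from 0.0895 to 0.114), and the 1 counted there was another list member. After median scaling 3 passed. Against db/m, none of the 5 passed for db/db (adjusted p from 0.154 to 0.32). All 5 passed for db/db+TSF (adjusted p from 0.016 to 0.033). The list medians were -0.20 for db/db and -0.42 for db/db+TSF. The summed intensity was 1007.8 to 1046.5 in db/m and 711.5 to 968.2 in the db/db genotype. None of 22 interferon and antigen presentation genes passed, with a median of -0.18.

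Neutrophil markers were high on 1 array. Their summed intensity was 675.8 in db/db replicate 3 and 107.4 to 127 on the other 8 arrays, and none of 12 passed. Retnlg, a neutrophil protein, stood at 8.26 there. Adipocyte markers were highest in db/m replicate 2, with a summed intensity of 1688 against 1047.4 and 1333.1 in the other db/m arrays and 640.2 to 1100.4 in the db/db genotype. Retn was 5.60 on that array and 2.95 to 3.49 on the others, while Adipoq, the defining marker, stayed at 2.73 to 3.24 on all 9. Car3, carbonic anhydrase 3, which adipocytes express highly, differed by -1.85 (SE 0.42, adjusted p = 0.0412) and was the 1 of 11 adipocyte markers to pass. It did not pass without db/m replicate 1, 2 or 3, db/db replicate 1, or db/db+TSF replicate 1, 2 or 3 (adjusted p from 0.0529 to 0.139). None of 14 endothelial markers passed. Rgs5, a pericyte gene, rose by 0.62, alone among 13 mesangial, pericyte and smooth muscle markers, and its second probe set differed by 0.78. Among the 33 cell cycle genes, Cdc20 and Ccnb2, of mitosis, rose by 0.48 and 0.64, with a list median of 0.20. That count of 2 fell to 0 when db/m replicate 1 was dropped, grew to 6 when db/db replicate 2 was dropped, and was 1 without db/m replicate 2 or 3, db/db replicate 1, or db/db+TSF replicate 1 or 3. Cdc20 did not pass without db/m replicate 1 (adjusted p = 0.0607), and Ccnb2 did not without db/m replicate 1, 2 or 3, db/db replicate 1, or db/db+TSF replicate 1 or 3 (adjusted p from 0.0629 to 0.145) nor after median scaling (adjusted p = 0.0529) or quantile normalization (adjusted p = 0.0592), each of which left a count of 1. What these markers contribute to the genotype differences of other genes was not tested.

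**Figure D4:**
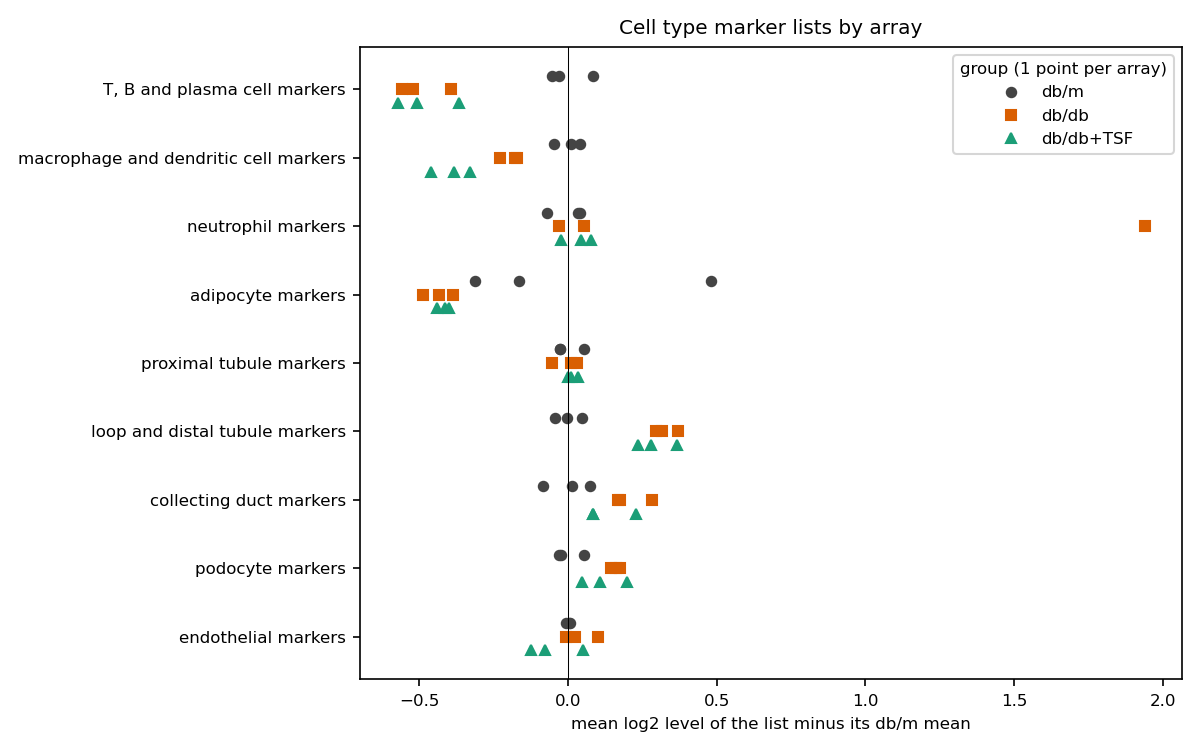
Each point is the mean log2 level of a cell type marker list on 1 array, minus the list's db/m mean. The db/db genotype lies lower than db/m for lymphocyte and macrophage markers. It lies higher for loop and distal tubule markers and, by a narrow margin, for collecting duct markers. Neutrophil markers are high in db/db replicate 3.

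The db/db groups were then set against each other within the same fit. For db/db+TSF minus db/db, 0 of 17740 genes passed (0%), with a smallest limma adjusted p of 0.145 and 2079 genes at an unadjusted p under 0.05. Without eBayes moderation the count was also 0. All 521 genotype genes had both group means on the same side of db/m, which pooling the groups favours. Of the 521, 115 had an unadjusted p under 0.05 for the difference between the db/db groups, and 4 differed by at least 2-fold. The median half-width of its unadjusted 95% interval was 0.27 among the 521, and far larger differences did not pass, among them those of Zbtb16 (1.44, adjusted p = 0.19), Noct (1.32, adjusted p = 0.233) and Sprr1a (-1.10, adjusted p = 0.237). Against db/m, with the same db/m arrays in each, 187 genes passed for db/db (1.05%) and 556 for db/db+TSF (3.13%). Sgk1, Kap, Ace and Gldc were among the genotype genes that did not pass for db/db (adjusted p from 0.116 to 0.233) and did for db/db+TSF (adjusted p from 0.00403 to 0.0482).

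The genes past the genotype threshold with the smallest p between the db/db groups show how far the pooled value can stand from each group. Serpinb8, a protease inhibitor, measured 4.88, 4.88 and 4.73 in db/m, 5.51, 5.67 and 5.64 in db/db, and 4.90, 4.78 and 5.12 in db/db+TSF. It was high in db/db alone, and the 95% interval of db/db+TSF minus db/db ran from -0.91 to -0.44. Chst11, a chondroitin sulfotransferase, measured 9.11, 8.82 and 8.64 in db/m, 7.82, 7.98 and 7.40 in db/db, and 6.77, 6.51 and 7.03 in db/db+TSF, lower than db/m in both groups and lowest in db/db+TSF, with an interval from -1.35 to -0.57. Rab30, a Golgi GTPase, had differences of 0.74 for db/db and 1.30 for db/db+TSF against db/m and Osbpl3, an oxysterol-binding protein relative, -0.27 for db/db and -0.78 for db/db+TSF. Mtarc1 had 1.28 for db/db and 2.20 for db/db+TSF. The adjusted p of these 5 for the difference between the db/db groups ran from 0.145 to 0.19. Serpinb8 did not pass the genotype threshold without db/m replicate 1, 2 or 3, db/db replicate 2 or 3, or db/db+TSF replicate 1 or 3 (adjusted p from 0.0535 to 0.0995). For Xpnpep2 and Agmo the intervals lay around 0, at -0.38 to 0.38 and -0.20 to 0.33.

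**Figure D5:**
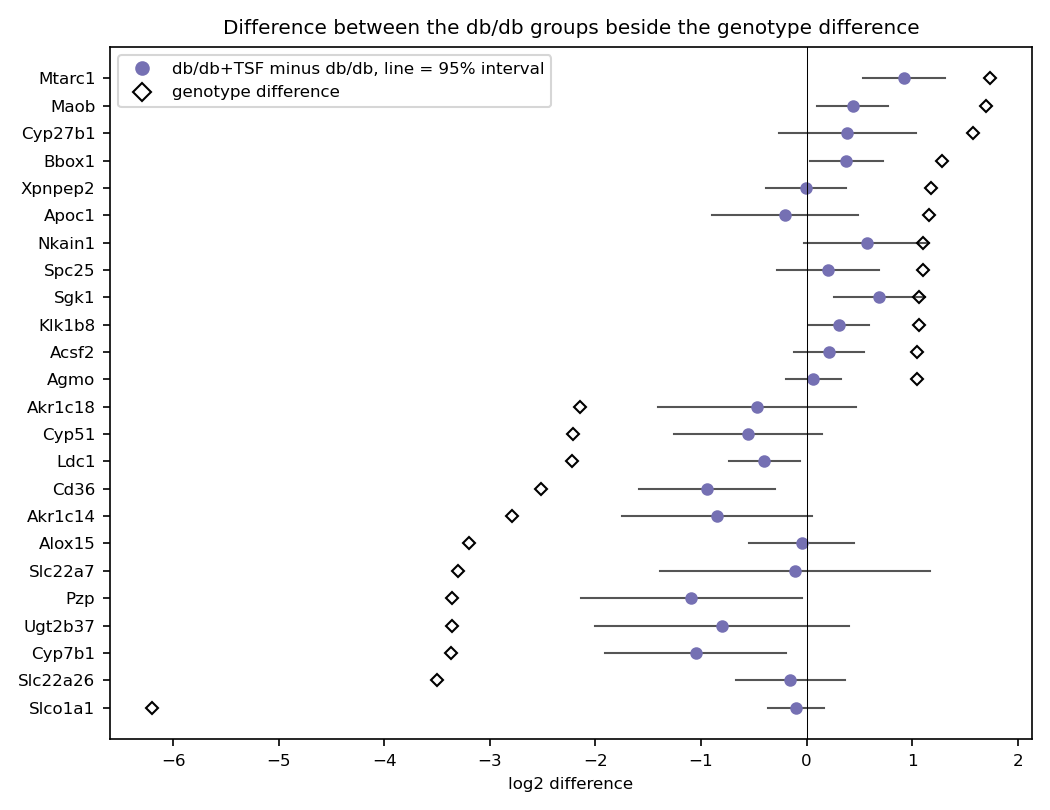
For the 12 largest rises and 12 largest falls, filled points give db/db+TSF minus db/db with its 95% interval and open diamonds give the genotype difference, both on the log2 scale. Slco1a1 has an interval of -0.37 to 0.16 beside a genotype difference of -6.20, while Mtarc1 has 0.53 to 1.31 beside 1.74.

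The position of the genes was not used to choose them. Chromosome 4, which carries Lepr, held 32 genes past the threshold of 1084 tested (2.95%), beside 2.94% of all genes. Within 10 Mb of Lepr 3 of 114 passed (2.63%). They were Cyp2j6 (0.49) and Acot11 (0.48), which rose, and Cyp2j13. Cyp2j6 did not pass without db/m replicate 1 (adjusted p = 0.0992), nor Acot11 without db/m replicate 1 or 2 (adjusted p from 0.0623 to 0.0753).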

How the data were processed

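The deposited values are intensity values on a linear scale, 1 per probe set and array; the authors' software, per the submitters' processing notes, was Transcriptome Analysis Console with Affymetrix Expression Console, whose settings the sources used here do not state. Of 41345 probe sets, 23521 had 1 symbol and 1814 several in the platform annotation, and the Entrez identifiers of 23328 matched RefSeq with 0 symbols changed. The brightest probe set stood for each of 22180 genes, and genes with a mean under 2.65 (30th percentile, log2(value + 1)) were left out, which kept genes bright in db/m alone. The arrays' number limits the precision, and no detection calls were used.

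Group means were estimated over the 9 arrays with limma 3.58.1 (eBayes, no trend) in R 4.3.3. The genotype contrast was the mean of both db/db groups minus db/m, with Benjamini-Hochberg adjustment over 17740 genes. On data simulated from these genes it called 91 of 100 genes changed by 1 log2 unit and 100 of 100 changed by 2, with 12 false calls. The simulated noise was normal and independent between genes and arrays, with no outlying array, so the real arrays may give other rates.

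Named genes were the 12 largest rises and falls past the threshold with no overlap and no clone or model symbol, up to 2 members of smallest p per list, the 5 of smallest p between the db/db groups, those near Lepr, and Lepr, Zbtb16, Havcr1, Lcn2, Nphs1 and Xist (under the filter, not tested). Other list members were named after their values were seen. The comparison and the 44 textbook gene lists (747 of 824 entries had a probe set) were chosen with earlier results of these data known. Lists are described by counts and medians.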

Additional observations from a re-analysis of the deposited data

Results flagged for a closer look

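Among the 6 arrays of db/db genotype, 10 of 122 named genes had an array standing apart by Dixon's ratio. Its nominal rate of about 1 in 20 holds for 6 values from 1 normal population. These arrays pool both db/db groups and the genes were picked from these data, so that rate gives no measure of chance here. In 9 of the 10 genes the array standing apart was db/db+TSF replicate 2. There, the level on the log2 scale was 7.66 for Ace (8.76 to 9.24 on the other 5 arrays), 6.11 for Cd36 (7.49 to 8.03), 3.98 for Cyp51 (5.25 to 5.73) and 4.74 for Cyp7b1 (6.40 to 7.36). It was 4.40 for Hsd17b2 (5.90 to 6.26), 9.34 for Kap (10.65 to 10.99) and 3.15 for Cd3g (3.55 to 3.75). Gm6614, which had the largest rise of all (2.27) but carries a gene-model symbol, was at 3.73 there (5.32 to 5.80), and Slc8a1 was high at 8.69 (7.92 to 8.12). Apoe was high in db/db replicate 2, at 6.33 against 5.80 to 5.93. Without db/db+TSF replicate 2, 202 genes were higher and 218 lower in the db/db genotype. The cause was not tested.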

How the results depend on the processing

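None of the 117 named genes past the threshold changed sign under any alternative, which choosing genes past the threshold favours. For comparisons of 1 db/db group the sign was fixed, because both group means lay on the same side of db/m. Of the 117, 64 passed whichever array was left out, and 27 passed in every alternative apart from the comparisons of 1 db/db group. Counts of 250 higher and 271 lower genes became 42 and 59 without eBayes moderation, 77 and 96 at an adjusted p of 0.01, 120 and 142 with at least a 1.5-fold difference, and 105 and 82 for db/db alone against db/m. Stricter thresholds lower a count by construction, and for the other settings the cause was not tested. With 1 array left out, the higher count ran from 102 to 202 and the lower from 129 to 223, and the share of genes whose genotypes did not overlap from 9.80% to 16.2%. That share was 8.55% with all arrays and grows when an array is dropped because fewer arrays must separate. The count between the db/db groups stayed at 0 in all 6 such fits, under quantile normalization and with the replicate block.

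Higher genes were 48.0% of calls, 44.0% after median scaling and 42.2% after quantile normalization. With the replicate number as a block the counts were 183 and 224. Arrays of the same number deviated together in 2 of 9 pairs (correlation over 0.1, range -0.0791 to 0.146), and arrays of different numbers in 2 of 18 (range -0.164 to 0.156). Both same-number pairs held db/db+TSF replicate 2, with db/m replicate 2 (0.146) and db/db replicate 2 (0.14). The numbers were taken as names, which so few pairs cannot settle. The list counts with an array left out or rescaled were added after the data were seen. Among genes with a mean log2 level under 4, 42 of 5458 passed, a smaller share than among all genes tested.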

Other observations

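Genes outside the lists were among the changed ones. Klk1b8, a tissue kallikrein, was at 3.78 to 4.14 in db/m and 4.58 to 5.16 in the db/db genotype and rose by 1.06. Nkain1, a sodium pump partner, was at 4.87 to 5.30 in db/m and 5.53 to 6.84 in the db/db genotype, with a difference of 1.10 (SE 0.23, adjusted p = 0.0293), and did not pass without db/m replicate 1, 2 or 3, or db/db+TSF replicate 1 or 2 (adjusted p from 0.054 to 0.125). Spc25, of the kinetochore, was at 5.22 to 5.87 in db/m and 6.18 to 7.13 in the db/db genotype, with a difference of 1.10 (SE 0.19, adjusted p = 0.0108), and did not pass without db/m replicate 2 or 3 (adjusted p from 0.0502 to 0.0523). Proximal tubule anion transporters went opposite ways. The sulfate cotransporter Slc13a1 rose by 0.33, though not without db/m replicate 1, 2 or 3, db/db replicate 1, 2 or 3, or db/db+TSF replicate 2 or 3 (adjusted p from 0.0716 to 0.121), and Slc17a3, a urate and phosphate transporter, fell by 0.68, though not without db/m replicate 1 (adjusted p = 0.0516). Slc13a1 also did not pass after median scaling (adjusted p = 0.0543) or quantile normalization (adjusted p = 0.0502). Sdf2l1, of the endoplasmic reticulum, was the only 1 of 19 unfolded protein response genes tested to pass (-0.52), and it did not when any 1 of the 9 arrays was left out (adjusted p from 0.0582 to 0.103) or after median scaling (adjusted p = 0.0567). Its genotypes overlapped, with differences against db/m of -0.25 for db/db (adjusted p = 0.472) and -0.79 for db/db+TSF (adjusted p = 0.0147). Fabp1, a fatty acid binding protein, was dim at 2.42 to 2.89 in db/m and 3.06 to 3.47 in the db/db genotype, rose by 0.57 and did not pass without db/m replicate 1 or 2, db/db replicate 1 or 2, or db/db+TSF replicate 1 or 2 (adjusted p from 0.0566 to 0.11).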
